A study of Mus musculus with 10 samples.

Results

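Transcript levels of 10 genes that carry adrenergic and cyclic AMP (cAMP) signals in heart muscle were followed in mouse myocardium with and without a deletion of NPRA, the natriuretic peptide receptor A made from the gene Npr1. The genes were picked by name for their place in the pathway, with earlier results of these data known. They are the receptor genes Adrb1, Adra1a and Adra1b, the G protein gene Gnas, and the adenylyl cyclase genes Adcy5 and Adcy6. The others are the protein kinase A (PKA) genes Prkar1a and Prkaca, and the signal-limiting genes Grk5 and Rgs2. All 10 were among the 11777 genes of the table, with 24 listed transcripts. The study set 5 C57BL/6 mice labelled NPRA-/-, in which NPRA was deleted in the myocardium alone (libraries 217, 227, 231, 240 and 241), against 5 C57BL/6 mice labelled NPRA+/+ (libraries 228, 230, 242, 243 and 255). Poly(A) RNA of the myocardium was sequenced, and the deposited values are taken as FPKM, fragments per kilobase of transcript scaled to the mapped total. The driver of the deletion, the deleted stretch of Npr1, the age and the part of the heart sampled are not stated in the sources at hand. Values per library are listed in this order.

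Noradrenaline and adrenaline reach cardiomyocytes through beta and alpha1 adrenergic receptors. Beta receptors couple to the stimulatory G protein Gs, whose alpha subunit turns on adenylyl cyclase; the cAMP it makes frees the catalytic subunits of PKA from their regulatory subunits, and PKA phosphorylates calcium channels, phospholamban and sarcomere proteins so that the heart beats faster and harder. Alpha1 receptors couple to Gq and phospholipase C instead. Receptor kinases and RGS proteins shorten these signals. NPRA is a guanylyl cyclase that makes cyclic GMP, and the cGMP and cAMP branches meet at shared phosphodiesterases.

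The question was whether the message for this machinery differs when NPRA is deleted, and no gene of the 10 met the threshold. With limma on log2(FPKM + 1) and Benjamini-Hochberg adjustment at 0.05 over 10764 genes, 0 of the 10 were called, against 0.00929% of all genes tested (1 gene). Of the 10, 0 had an unadjusted p under 0.05, against 5.52% of all genes, and 0 had groups that did not overlap, against 1.08%. Estimates were higher in libraries labelled NPRA-/- for 2 genes, Adrb1 and Prkar1a, and lower for 8, where 60.6% of all genes tested were lower; with median-of-ratios scaling 3 of the 10 were higher and 7 lower, beside 49.4% of all genes lower. The median log2 difference (NPRA-/- minus NPRA+/+) was -0.0606 over the 10 genes and -0.0293 over all genes tested. The precision was unequal: the 95% interval allowed folds of 0.949 to 1.10 for Prkar1a, but 0.431 to 1.80 for Adcy6.

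**Figure D1:**
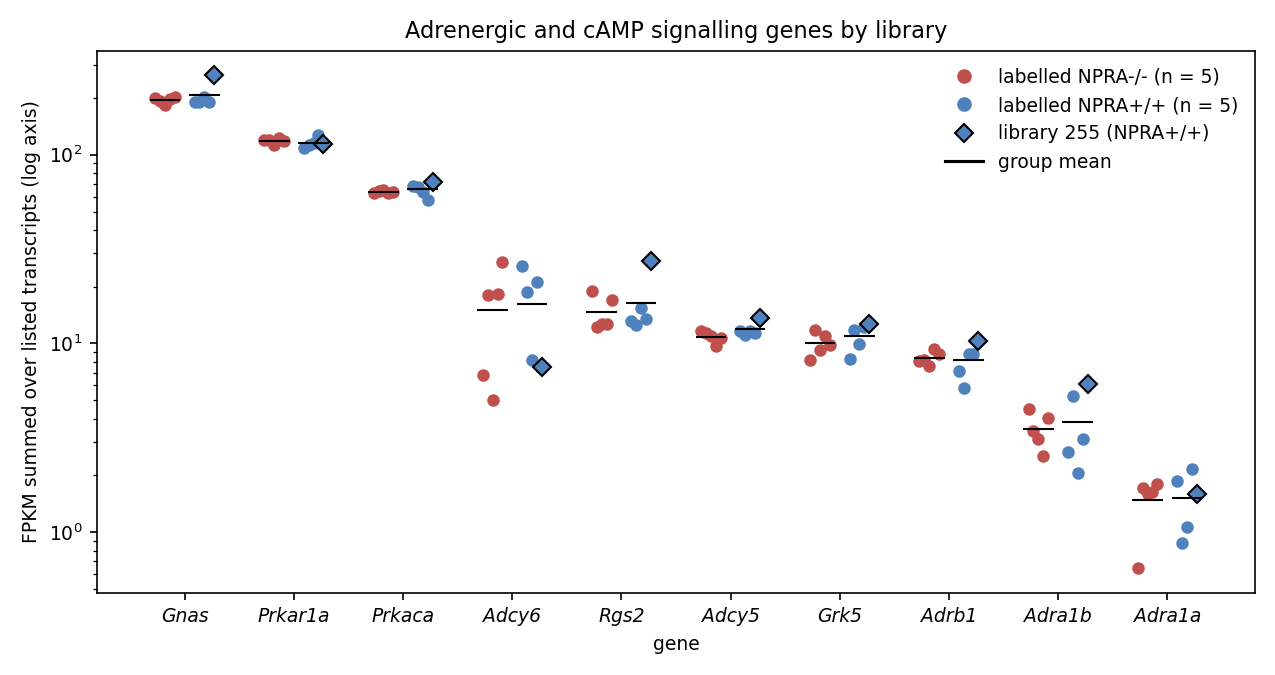
FPKM of each gene (log axis, summed over its listed transcripts) in the 5 libraries labelled NPRA-/- (red, left) and the 5 labelled NPRA+/+ (blue, right); bars are group means and the outlined diamond is library 255. The groups overlap for every gene, Adcy6 ranges from 4.99 to 27.1 FPKM, and library 255 is the highest of the 10 for 7 genes.

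**Figure D2:**
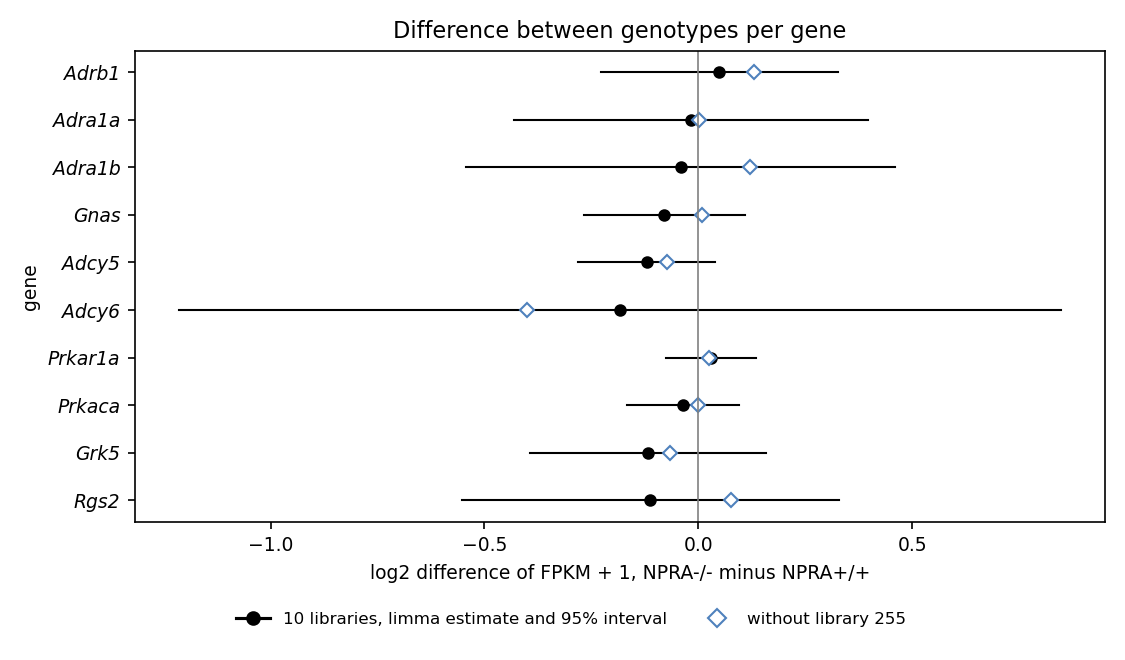
Difference of mean log2(FPKM + 1), NPRA-/- minus NPRA+/+, per gene (points) with the 95% interval from limma (n = 5 each); open diamonds are the estimates without library 255. All 10 intervals include 0, from the narrow interval of Prkar1a (-0.08 to 0.14) to the wide interval of Adcy6 (-1.21 to 0.85).

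Some facts about the libraries bear on these values. Npr1 itself spanned 4.12 to 5.20 FPKM in libraries labelled NPRA-/-, against 4.30 to 5.05 FPKM in those labelled NPRA+/+, so it did not separate the genotypes. The reason was not tested. A whole-tissue level also holds Npr1 of cells outside the deletion, and the deleted stretch is not stated. The labels could therefore not be checked this way. The cardiomyocyte marker Myh6 was between 7060 and 8440 FPKM in all 10 libraries. The 7 listed atrial markers did not share 1 pattern, and 0 were called. Sln exceeded 5 FPKM in libraries 217 and 227 labelled NPRA-/- and in 230 and 242 labelled NPRA+/+. It was listed at 0 in 241 and 255. Myl4, Myl7 and Dkk3 were also highest in the 4 libraries with Sln above 5 FPKM. Nppa was highest in 243 and Tbx5 in 240. Nr2f2 was lower in NPRA-/- without overlap, at 4.13 to 4.9 FPKM against 5.36 to 7.29 FPKM (two-sided exact permutation p = 0.00794, unadjusted). The endothelial marker Esam and the macrophage marker C1qa were also lower without overlap, and 1.08% of all genes tested had groups that did not overlap. For all 10 genes of the pathway the range of the 4 libraries with Sln above 5 FPKM overlapped that of the other 6. Those other 6 were mixed. Myl7 was at 12.7 and 26.9 FPKM in 231 and 243, and at most 0.586 FPKM in 228, 240, 241 and 255. The split does not part libraries with atrial signal from those without, so the overlap leaves an atrial part undecided. Library 255 had the brown fat gene Ucp1 at 5.89 FPKM, where the others had at most 0.0904 FPKM. Markers of macrophages were lower in NPRA-/-, with summed levels of 78.5 to 92.0 FPKM in libraries labelled NPRA-/- and 93.0 to 111 FPKM in those labelled NPRA+/+ (7 of 7 lower, 0 called), and all 7 markers each of endothelium, fibroblasts and smooth muscle were also lower with 0 called. Of the cardiomyocyte markers 6 were higher and 2 lower, and all 5 erythroid markers were higher, with 0 called. In bulk tissue, fewer cells of a type and less RNA per cell cannot be told apart.

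On the FPKM scale, which is per length, the 10 genes covered a wide range. Median levels over the 10 libraries ran from Gnas (194 FPKM) through Prkar1a (117), Prkaca (64.1), Adcy6 (18.2), Rgs2 (13.3), Adcy5 (11.3), Grk5 (10.5), Adrb1 (8.48) and Adra1b (3.27) to Adra1a (1.62 FPKM). Gnas, Prkar1a and Prkaca were each set apart from the next gene, with ranges that did not overlap. Below them neighbouring ranges overlapped, and Adcy6 exceeded Rgs2 in only 6 of 10 libraries, as Adcy5 did Grk5. Among the genes tested, the median level of Gnas stood at percentile 97.5, that of Prkar1a at 96.0 and that of Prkaca at 92.5, whereas Adra1a stood at 9.58.

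Adrb1 (chr19:56722199-56733113, plus strand, GRCm38/mm10) encodes the beta1 receptor, the main cardiac receptor for noradrenaline, and had 1 listed transcript. It was at 8.07, 8.15, 7.57, 9.30 and 8.84 FPKM in libraries labelled NPRA-/-, and 7.19, 5.80, 8.80, 8.84 and 10.3 FPKM in those labelled NPRA+/+. The NPRA-/- values lay inside the wider NPRA+/+ range. The log2 difference was 0.049 (SE 0.126, 95% interval -0.23 to 0.33, limma adjusted p = 0.975); it was -0.054 without library 230.

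The alpha1 receptors had lower levels. Adra1b (chr11:43774606-43901210, minus strand) had 1 listed transcript, at 4.48, 3.43, 3.12, 2.53 and 4.01 FPKM in libraries labelled NPRA-/- and 2.65, 5.26, 2.06, 3.12 and 6.09 FPKM in those labelled NPRA+/+. Libraries 230 and 255 held the highest values and the groups overlapped. The log2 difference came to -0.041 (SE 0.228, limma adjusted p = 0.992) and turned to 0.12 without library 255. Adra1a (chr14:66635251-66771168, plus strand) was at 0.645, 1.72, 1.60, 1.63 and 1.80 FPKM in libraries labelled NPRA-/-, and 1.86, 0.877, 1.06, 2.17 and 1.59 FPKM in those labelled NPRA+/+. The log2 difference came to -0.016 (SE 0.188, limma adjusted p = 0.997), and turned to 0.13 without library 217. The low Adra1a values were in 217, 230 and 242, which are 3 of the 4 libraries with Sln above 5 FPKM; the other, 227, was at 1.72 FPKM, and the part of atrial tissue in this was not tested. Adrb1 exceeded Adra1b in all 10 libraries, by 1.10-fold to 4.28-fold.

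Adra1a had a pair of listed transcripts whose coding parts end differently, shown here because the low libraries of Adra1a were those with little or no Adra1a-203. The capitals are coding bases after the shared part: all 12 for Adra1a-203, and the leading 30 of 129 for Adra1a-202 (GENCODE vM21 transcripts, plus strand, 5′ to 3′).
Adra1a-202: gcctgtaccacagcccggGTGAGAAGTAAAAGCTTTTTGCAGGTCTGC
Adra1a-203: gcctgtaccacagcccggGGCTTTTATCCA
Adra1a-203 was at 0, 0.927, 1.17, 0.851 and 0.858 FPKM in libraries labelled NPRA-/-, and 1.46, 0.0780, 0, 1.02 and 0.718 FPKM in those labelled NPRA+/+. It was listed at 0 in 217 and 242 and was low in 230, and these were the 3 libraries where the gene was lowest. Adra1a-202 ran from 0.427 to 0.945 FPKM in libraries labelled NPRA-/- and from 0.402 to 1.15 FPKM in those labelled NPRA+/+. Neither transcript reached a group mean of 1 FPKM, so neither entered the transcript test.

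Gnas (chr2:174284320-174346744, plus strand) encodes the alpha subunit of Gs, which links beta receptors to adenylyl cyclase. It was at 200, 192, 184, 196 and 201 FPKM in libraries labelled NPRA-/-, and 191, 190, 203, 190 and 263 FPKM in those labelled NPRA+/+. Apart from 255 the libraries of both genotypes lay between 184 and 203 FPKM. The log2 difference was -0.080 (SE 0.0854, 95% interval -0.27 to 0.11, limma adjusted p = 0.928), and 0.0090 without library 255.

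The locus is imprinted and makes several messages that share their later exons. Of the 9 listed transcripts, 4 begin with the long exon of XLas, an extra-large form of the subunit made from its own promoter, and 5 begin elsewhere. Among these 5 are the short and long forms of the ordinary subunit, which differ by exon 3; the stretch around it is shown because it is what separates Gnas-206, Gnas-207 and Gnas-208. Capitals mark the 45 bases of exon 3 in Gnas-208 and the 3 bases of Gnas-207 that Gnas-206 lacks (GENCODE vM21, plus strand, 5′ to 3′).
Gnas-208: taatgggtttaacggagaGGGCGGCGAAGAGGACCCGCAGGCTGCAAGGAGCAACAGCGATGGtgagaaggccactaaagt
Gnas-206: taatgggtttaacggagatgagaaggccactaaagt
Gnas-207: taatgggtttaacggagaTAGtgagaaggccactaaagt
Transcripts with exon 3 held 59.5, 65.1, 61.1, 58.0 and 62.7% of the Gnas sum in libraries labelled NPRA-/- and 60.4, 70.6, 59.0, 60.0 and 70.8% in those labelled NPRA+/+. The shares overlapped, with the highest in 230 and 255 (two-sided exact permutation p = 0.357). Gnas-206 and Gnas-207, the forms without exon 3, together spanned 66.9 to 82.4 FPKM in libraries labelled NPRA-/-, against 55.7 to 83.0 FPKM in those labelled NPRA+/+. Gnas-207 made up 53.0 to 56.0% of that pair in libraries labelled NPRA-/- and 51.6 to 63.1% in those labelled NPRA+/+; the highest shares were 63.1% in 243 and 60.4% in 255.

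The XLas-exon transcripts set library 255 apart. Their sum was 73.4, 69.0, 69.2, 71.1 and 81.8 FPKM in libraries labelled NPRA-/-, and 67.2, 68.6, 78.9, 91.9 and 0 FPKM in those labelled NPRA+/+. All 4 were listed at 0 in library 255, where Gnas-208 was at 183 FPKM, against 38.5 to 53.5 FPKM in libraries labelled NPRA-/- and 15.3 to 59.0 FPKM in the other 4 labelled NPRA+/+. Library 243 went the other way, with the highest XLas-exon sum and the lowest Gnas-208 level. Gnas-201 and Gnas-209 have the same letters and differ only in their annotated coding part, as do Gnas-223 and Gnas-224, which add 210 bases at the end; the split within either pair cannot be read from the sequence, and their sums are used here. A listed 0 can be a failed estimate, and the cause of the pattern in 255 was not tested. The XLas-exon levels of the other libraries are likewise estimates of a split between transcripts that share their later exons, and they were not checked. The XLas-exon transcripts are 3519 or 3729 bases long, and Gnas-208 is 1716. FPKM is per length, so a Gnas sum also depends on how signal is split between them. The higher Gnas sum of 255 can therefore not be read as more Gnas message.

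**Figure D3:**
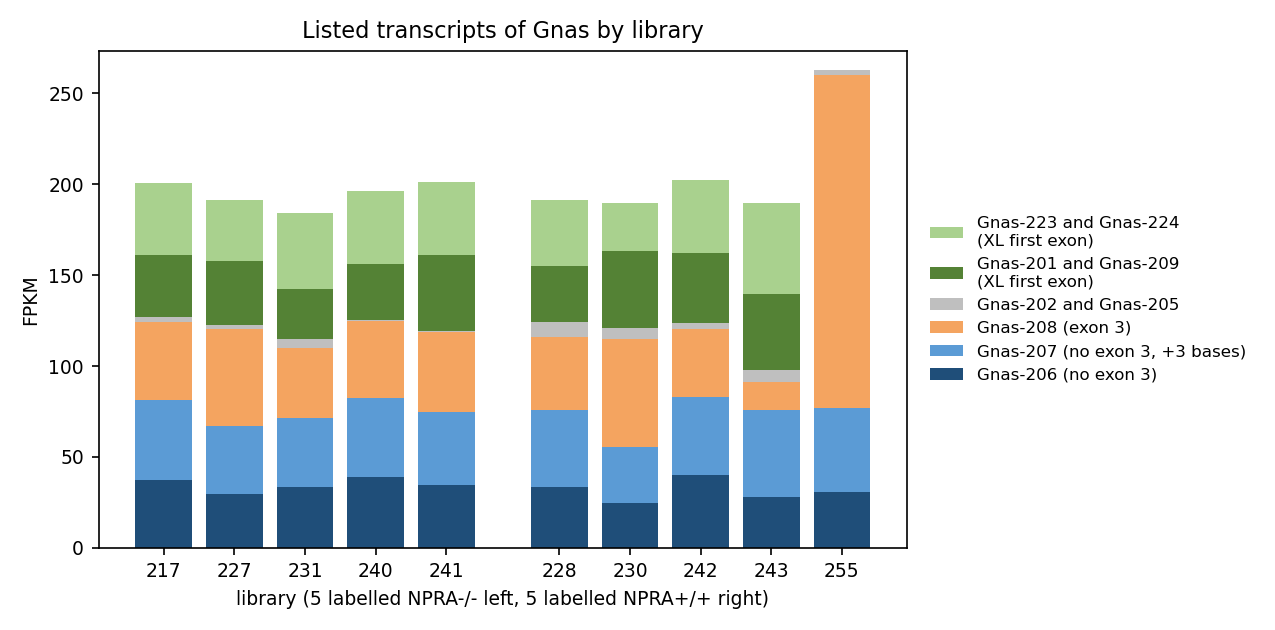
FPKM of the 9 listed Gnas transcripts stacked per library (4 with the XLas exon in green, Gnas-208 in orange, the forms without exon 3 in blue, Gnas-202 and Gnas-205 in grey), 5 libraries labelled NPRA-/- on the left and 5 labelled NPRA+/+ on the right. Library 255 has no XLas-exon transcript and 183 FPKM of Gnas-208, while the forms without exon 3 stay between 55.7 and 83.0 FPKM in every library.

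The rest of Gnas was small. Gnas-202, which starts at an upstream exon, was at 2.93, 2.12, 4.71, 0.487 and 0.445 FPKM in libraries labelled NPRA-/-, and 8.15, 3.93, 3.08, 4.41 and 2.96 FPKM in those labelled NPRA+/+. It was lowest in 240 and 241 and highest in 228, and the groups overlapped. Its log2 difference of -0.94 (SE 0.409) had an unadjusted limma p of 0.0440, the lowest of the 20 transcripts of these genes that were tested, and an adjusted p of 0.893 over 17641 transcripts. Of those 20 transcripts 0 were called, against 0.0283% of all transcripts (5 transcripts); 1 had an unadjusted p under 0.05, against 5.5% of all, and 0 had groups that did not overlap, against 1.02%. Gnas-205 was listed at 0 in 8 libraries and was at 2.50 and 2.29 FPKM in 230 and 243, both labelled NPRA+/+. The table lists transcripts with a mean of at least 0.5 FPKM in 1 genotype. Gnas-205 met that limit only through its NPRA+/+ mean of 0.958 FPKM, so its place in NPRA+/+ is no evidence of a genotype difference.

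Adcy5 and Adcy6 encode the main adenylyl cyclases of the cardiomyocyte, both held back by free calcium ions. Adcy5 (chr16:35154877-35305738, plus strand, 1 listed transcript) was at 11.6, 11.3, 10.9, 9.70 and 10.7 FPKM in libraries labelled NPRA-/-, and 11.7, 11.1, 11.7, 11.3 and 13.6 FPKM in those labelled NPRA+/+. The groups overlapped at 11.1 to 11.6 FPKM. The log2 difference was -0.12 (SE 0.0727, 95% interval -0.28 to 0.039, limma adjusted p = 0.908), and -0.073 without library 255. Its exact permutation p of 0.0635 (two-sided, unadjusted) was the lowest of the 10 genes.

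Adcy6 (chr15:98589973-98610076, minus strand) was the least even of the 10 genes. It was at 6.81, 18.1, 4.99, 18.2 and 27.1 FPKM in libraries labelled NPRA-/-, and 25.7, 18.7, 8.15, 21.2 and 7.54 FPKM in those labelled NPRA+/+. The highest value was 5.44-fold the lowest, and both genotypes held low libraries (217 and 231, and 242 and 255) and high ones. The spread within genotypes was larger than that of 99.0% of the genes tested. The log2 difference of -0.18 had an SE of 0.468 and a 95% interval of -1.21 to 0.85 (limma adjusted p = 0.975), which leaves folds of 0.431 to 1.80 undistinguished; the estimate was 0.12 without library 231. Adcy5 was above Adcy6 in 217, 231, 242 and 255 and below it in the other 6 libraries; the log2 ratio of Adcy5 to Adcy6 ran from -1.27 to 0.99 in libraries labelled NPRA-/- and from -1.07 to 0.78 in those labelled NPRA+/+ (two-sided exact permutation p = 0.841).

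Adcy6 was listed as a pair of transcripts. Adcy6-201 has 6 coding bases that Adcy6-205 lacks, in capitals below, and the pair differ far more outside the coding part, with 2380 bases after it in Adcy6-201 and 209 in Adcy6-205 (GENCODE vM21, minus strand, 5′ to 3′). The junction is shown because it is the only coding difference between them.
Adcy6-201: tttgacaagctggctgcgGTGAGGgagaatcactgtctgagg
Adcy6-205: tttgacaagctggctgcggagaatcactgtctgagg
Adcy6-201 was at 0.387, 15.9, 0.383, 3.11 and 6.96 FPKM in libraries labelled NPRA-/-, and 0.137, 0.144, 1.16, 0.43 and 1.84 FPKM in those labelled NPRA+/+. Adcy6-205 was at 6.42, 2.22, 4.6, 15.1 and 20.2 FPKM in libraries labelled NPRA-/-, and 25.6, 18.6, 6.98, 20.8 and 5.69 FPKM in those labelled NPRA+/+. Library 227 alone had more Adcy6-201 than Adcy6-205, with 87.7% of its Adcy6 sum in Adcy6-201, where the other libraries had between 0.535 and 25.7%. The log2 difference of Adcy6-201 was 1.31 (SE 0.684, limma adjusted p = 0.903) and that of Adcy6-205 was -0.75 (SE 0.578, limma adjusted p = 0.904). Adcy6-201 met the test's floor of 1 FPKM only through its NPRA-/- mean of 5.35 FPKM, against 0.744 FPKM in NPRA+/+. Its entry to the test thus depended on the group where it was higher, with the highest value in library 227.

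**Figure D4:**
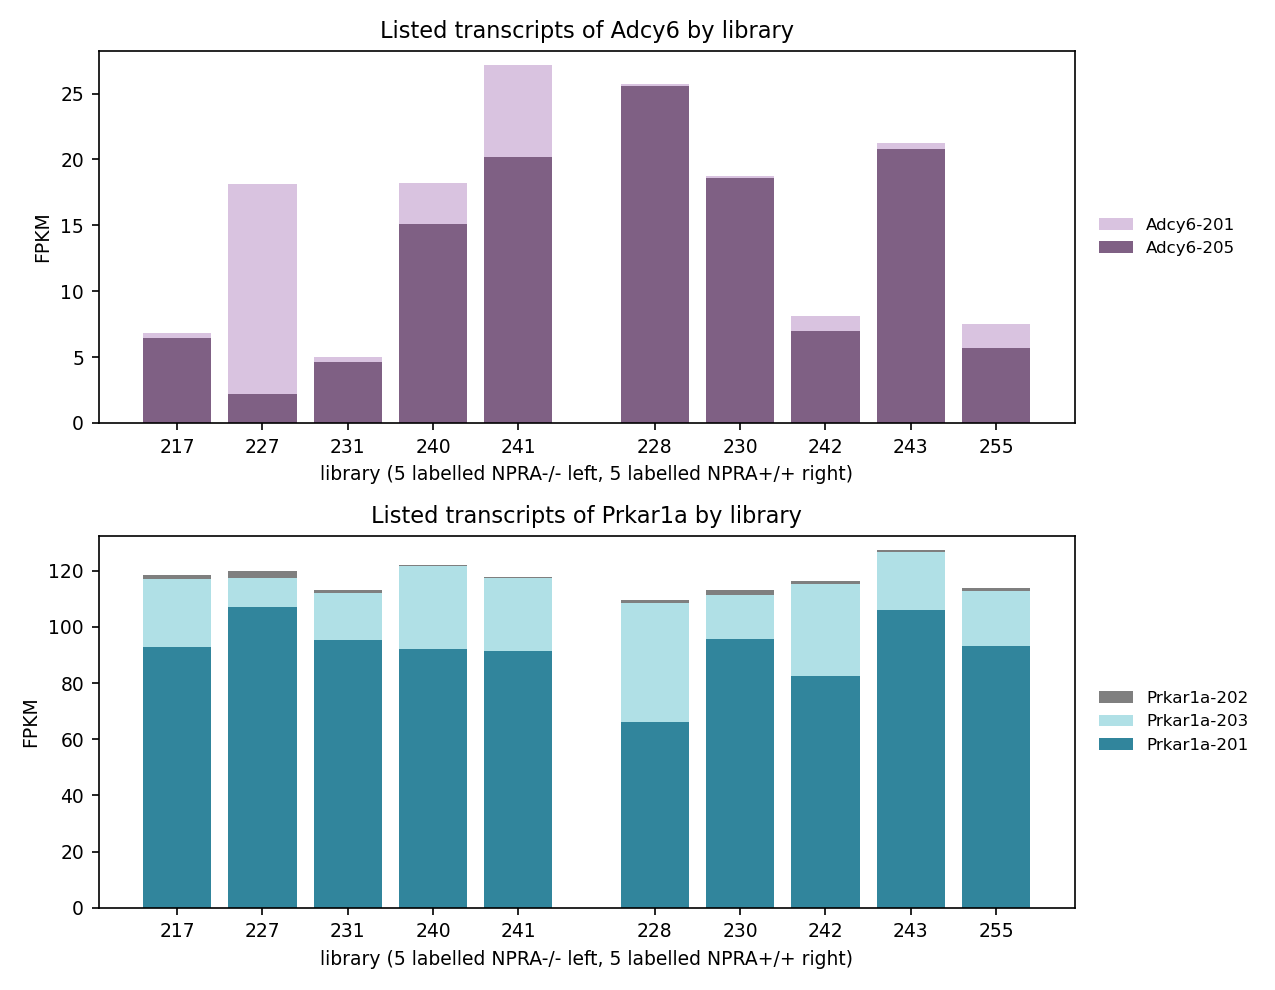
FPKM of the listed transcripts of Adcy6 (top) and Prkar1a (bottom) stacked per library, 5 labelled NPRA-/- on the left and 5 labelled NPRA+/+ on the right. The Adcy6 sum varies 5.44-fold with no order by genotype and is mostly Adcy6-201 in library 227, while the Prkar1a sum stays between 109 and 127 FPKM although the Prkar1a-203 share runs from 8.62 to 38.6%.

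The PKA subunits were the steadiest. Prkar1a (chr11:109649405-109669656, plus strand), which encodes the type I alpha regulatory subunit that holds the kinase inactive until cAMP binds, was at 119, 120, 113, 122 and 118 FPKM in libraries labelled NPRA-/-, and 109, 113, 116, 127 and 114 FPKM in those labelled NPRA+/+. Its spread within genotypes was larger than that of only 2.95% of the genes tested. The log2 difference was 0.030 (SE 0.0478, 95% interval -0.08 to 0.14, limma adjusted p = 0.947).

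Beneath this even sum, the listed split between transcripts with different annotated starts varied. Use of the starts themselves was not measured. Prkar1a-201 and Prkar1a-203 have the same coding letters and begin at different exons; Prkar1a-203 held 20.3, 8.62, 15.0, 24.1 and 22.1% of the sum in libraries labelled NPRA-/- and 38.6, 14.0, 28.1, 16.3 and 17.1% in those labelled NPRA+/+. The share was lowest in 227 and highest in 228, and the groups overlapped (two-sided exact permutation p = 0.421). The window at the Prkar1a-203 start and the one just before the Prkar1a-201 start are shown because the messages differ in where they begin, with the letters of the cAMP response element, TGACGTCA, and its shorter core, TGACG or CGTCA on the other strand, in capitals (RefSeq, GRCm38.p6, plus strand, 5′ to 3′). The window near Prkar1a-201 is chr11:109650612-109650911, which ends before that start, and the window at Prkar1a-203 is chr11:109649113-109649412.
Prkar1a-201 window: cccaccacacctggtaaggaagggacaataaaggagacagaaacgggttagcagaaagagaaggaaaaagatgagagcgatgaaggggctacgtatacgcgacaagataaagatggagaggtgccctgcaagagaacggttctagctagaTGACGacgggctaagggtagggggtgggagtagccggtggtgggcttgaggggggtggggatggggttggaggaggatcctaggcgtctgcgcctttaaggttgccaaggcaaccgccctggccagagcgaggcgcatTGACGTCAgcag
Prkar1a-203 window: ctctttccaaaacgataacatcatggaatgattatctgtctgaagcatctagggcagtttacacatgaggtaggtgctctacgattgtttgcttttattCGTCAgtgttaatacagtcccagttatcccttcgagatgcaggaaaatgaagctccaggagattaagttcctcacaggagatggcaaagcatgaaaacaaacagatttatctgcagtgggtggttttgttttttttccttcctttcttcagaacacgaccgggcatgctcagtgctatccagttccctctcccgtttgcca
The full element is in the window near the Prkar1a-201 start and not in that of Prkar1a-203, which holds only the core. Among 32851 RefSeq windows of the same length 1.79% hold the full letters and 20.8% the core, counting the cores inside full elements. For the 8 of the 10 genes with windows, the full letters occur in 2 of 18 windows, both of Prkar1a and overlapping each other. The core occurs in 9 of 18, from 5 genes. These 9 count some cores more than once, since the overlapping Prkar1a windows share theirs and 2 overlapping Gnas windows share 1. A match is a description of letters only.

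Prkaca (chr8:83972993-83996443, plus strand) encodes the alpha catalytic subunit of PKA. It was at 63.0, 64.4, 64.6, 62.7 and 63.8 FPKM in libraries labelled NPRA-/-, and 68.0, 67.3, 63.3, 57.2 and 72.0 FPKM in those labelled NPRA+/+. The NPRA-/- libraries lay within 2 FPKM of each other and inside the NPRA+/+ range. The log2 difference was -0.036 (SE 0.0598, 95% interval -0.17 to 0.096, limma adjusted p = 0.953), and ran from -0.084 without library 243 to -0.0016 without 255. Prkar1a exceeded Prkaca 1.75-fold to 1.94-fold in libraries labelled NPRA-/- and 1.58-fold to 2.23-fold in those labelled NPRA+/+ (two-sided exact permutation p = 0.611). For the log2 ratio of Prkaca to Prkar1a the exact permutation p was 0.508 with all 10 libraries. It was 0.0317 without library 243, and 0.46 to 0.802 without each of the other 9.

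Nearly all Prkaca was the transcript Prkaca-201, and a minor one, Prkaca-202, starts from another exon and so encodes another amino end. The coding starts are shown to tell them apart, with the coding bases of the starting exon in capitals and the shared exon in lower case (GENCODE vM21, plus strand, 5′ to 3′).
Prkaca-201: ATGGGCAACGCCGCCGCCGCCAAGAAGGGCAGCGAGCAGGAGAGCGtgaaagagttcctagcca
Prkaca-202: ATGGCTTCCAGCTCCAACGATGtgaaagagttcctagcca
Prkaca-202 was at 0.287, 0.317, 0.350, 1.16 and 0.71 FPKM in libraries labelled NPRA-/-, and 0.919, 1.44, 1.02, 0.749 and 1.20 FPKM in those labelled NPRA+/+. It was low in 217, 227 and 231, while 240 lay among the NPRA+/+ values. Its share of Prkaca was 0.456, 0.492, 0.542, 1.85 and 1.11% in libraries labelled NPRA-/- and 1.35, 2.14, 1.61, 1.31 and 1.67% in those labelled NPRA+/+. The share averaged 0.891% ± 0.601 in NPRA-/- and 1.62% ± 0.333 in NPRA+/+ (SD, n = 5 each), with a two-sided exact permutation p of 0.0635, the lowest of 20 transcript shares tested. Without library 240 the difference was -0.964 percentage points, with an unadjusted exact permutation p of 0.00794; without each of the other 9 libraries in turn p ran from 0.0714 to 0.119. The limma log2 difference of the transcript was -0.42 (SE 0.192, adjusted p = 0.900). Prkaca-202 met the test's floor of 1 FPKM only through its NPRA+/+ mean of 1.065 FPKM, against 0.566 FPKM in NPRA-/-. Its entry to that test thus depended on the group where it was higher. These are low values in a table whose transcripts all have a mean of at least 0.5 FPKM in 1 genotype.

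Grk5 and Rgs2 encode proteins that end the signal. Grk5 (chr19:60889749-61095968, plus strand, 1 listed transcript), a kinase that phosphorylates active receptors so that arrestins can bind, was at 8.17, 11.8, 9.22, 11 and 9.82 FPKM in libraries labelled NPRA-/-, and 8.27, 11.8, 9.94, 12.2 and 12.7 FPKM in those labelled NPRA+/+. The groups overlapped over most of their range. The log2 difference came to -0.12 (SE 0.125, 95% interval -0.39 to 0.16, limma adjusted p = 0.928), and -0.065 without library 255.

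Rgs2 (chr1:143999338-144004161, minus strand) encodes a protein that speeds the return of Gq to its inactive state. It was at 18.9, 12.2, 12.7, 12.7 and 16.9 FPKM in libraries labelled NPRA-/-, and 13.2, 12.6, 15.5, 13.4 and 27.2 FPKM in those labelled NPRA+/+. Most libraries of both genotypes were near 13 FPKM, with 217, 241 and 242 somewhat higher and 255 far higher. The log2 difference was -0.11 (SE 0.20, 95% interval -0.55 to 0.33, limma adjusted p = 0.959), and 0.076 without library 255. Rgs2-202 held 89.4 to 96.8% of the sum and Rgs2-204 the rest.

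Library 255, labelled NPRA+/+, was the highest of the 10 libraries for 7 of the 10 genes (Adrb1, Adra1b, Adcy5, Gnas, Grk5, Rgs2 and Prkaca), where it was the highest for 14.9% of all genes tested. It was the lowest for 0 of the 10. Among the 65 other pathway genes tested, described below, library 255 was the highest for only 8. For Gnas the sum depends on the split between transcripts of unlike length, so its high value in 255 cannot be read as more message. Library 255 also held the Ucp1 signal and had the highest adipocyte marker score, 3.39 against 1.97 to 2.69 in the others. The score is the mean log2(FPKM + 1) of the 5 listed markers and includes Ucp1, so it is not separate from that signal. Adipoq, Cidec and Fabp4 were also highest in 255, but Retn was highest in 227 (2.04 FPKM, against 0.499 FPKM in 255). The part of fat in these levels was not tested. Leaving out library 255 turned the sign of the difference for Adra1a (0.0025), Adra1b, Gnas and Rgs2. It moved those of Adrb1 (0.13), Adcy5 (-0.073), Adcy6 (-0.40), Grk5 (-0.065) and Prkaca (-0.0016) by more than 1.5 times. Prkar1a (0.024) alone of the 10 did neither, and 0 of the 10 genes were called without library 255.

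The wider pathway held no called gene either. Of 81 other genes in 10 lists, 69 were listed in the table and 65 were tested; 0 were called, 22 had higher and 43 lower estimates in NPRA-/-, and the median log2 difference was -0.0279, beside -0.0293 for all genes tested. With median-of-ratios scaling 33 of the 65 were higher and 32 lower. Of the 65, 1 had an unadjusted p under 0.05 (Cacnb2). Adrb3, Adra2a, Adra2b, Adra2c, Gnal, Adcy1, Adcy2, Adcy3, Adcy8, Adcy10, Pkib and Pde4c had no listed transcript.

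Among the other receptor genes, Adra1d was below the test's floor, and the opposing receptors Chrm2 (log2 difference -0.023, SE 0.102) and Adora1 (-0.017, SE 0.318) had estimates near 0, which turned positive with median-of-ratios scaling.

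Cacnb2, a beta subunit of the L-type calcium channel and a substrate of PKA, was at 31.6, 34.6, 30.3, 30.3 and 30.6 FPKM in libraries labelled NPRA-/-, and 25.4, 29.0, 30.3, 24.1 and 25.6 FPKM in those labelled NPRA+/+. Only library 242 of the NPRA+/+ libraries reached the NPRA-/- range. The log2 difference came to 0.22 (SE 0.0722, unadjusted limma p 0.0102, adjusted limma p 0.833 over all genes), and the sum over transcripts mattered, since its most abundant transcript alone gave -0.24. Among the other 11 PKA substrates listed, the transcription factor gene Creb1 had a log2 difference of -0.32 (SE 0.179) and Rrad, a brake on the calcium channel, one of 0.21 (SE 0.146), and neither passed the test. The most abundant transcript alone gave 0.032 for Creb1, and the Rrad difference was 0.069 without library 255 and 0.01 with the adipocyte score as a covariate.

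The remaining lists are given by their counts. All 9 other G protein subunit genes had lower estimates in NPRA-/- (8 of 9 with median-of-ratios scaling) and 0 were called; the 3 with the smallest p were Gnb2 (-0.29, SE 0.151), Gnai3 (-0.18, SE 0.112) and Gnai1 (-0.18, SE 0.123). The 3 other adenylyl cyclase genes, Adcy9 (-0.034), Adcy7 (-0.040) and Adcy4 (-0.011), were lower by little, and all 3 were higher with quantile normalization. Receptor kinases, arrestins and RGS proteins had 4 higher and 5 lower of 9 (5 and 4 with median-of-ratios scaling), with Rgs3 (-0.20, SE 0.117), Rgs5 (-0.047) and Grk2 (-0.080, SE 0.117), the other main receptor kinase of the heart, as the named genes. PKA anchoring proteins, which place the kinase near its targets, had 5 higher and 4 lower of 9 (8 and 1 with median-of-ratios scaling), with Akap5 (0.22, SE 0.121), Akap6 (0.21, SE 0.125) and Akap12 (0.13, SE 0.0984) on top. Akap5 met the test's floor of 1 FPKM only through its NPRA-/- mean of 1.34 FPKM, against 0.98 FPKM in NPRA+/+. Other PKA subunits and inhibitors had 3 higher and 1 lower of 4 (2 and 2 when libraries were scaled to the same sum), with Prkar2a (-0.086), Pkia (0.031) and Prkacb (0.039). Phosphodiesterases, which break cAMP down, had 2 higher and 4 lower of 6, with Pde8a (-0.15, SE 0.0997), Pde4b (-0.12, SE 0.113) and Pde3a (0.080, SE 0.113). Other cAMP effectors had 1 higher and 4 lower of 5, with Popdc3 (-0.16, SE 0.102), Popdc2 (-0.062) and Rapgef3 (-0.067), and all 5 phosphatase genes were lower (4 with median-of-ratios scaling), with Ppp2cb (-0.085), Ppp1cb (-0.047) and Ppp1ca (-0.040). No list held a called gene, so each direction is that of estimates alone, in a table where 60.6% of genes had a lower estimate in NPRA-/-.

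**Figure D5:**
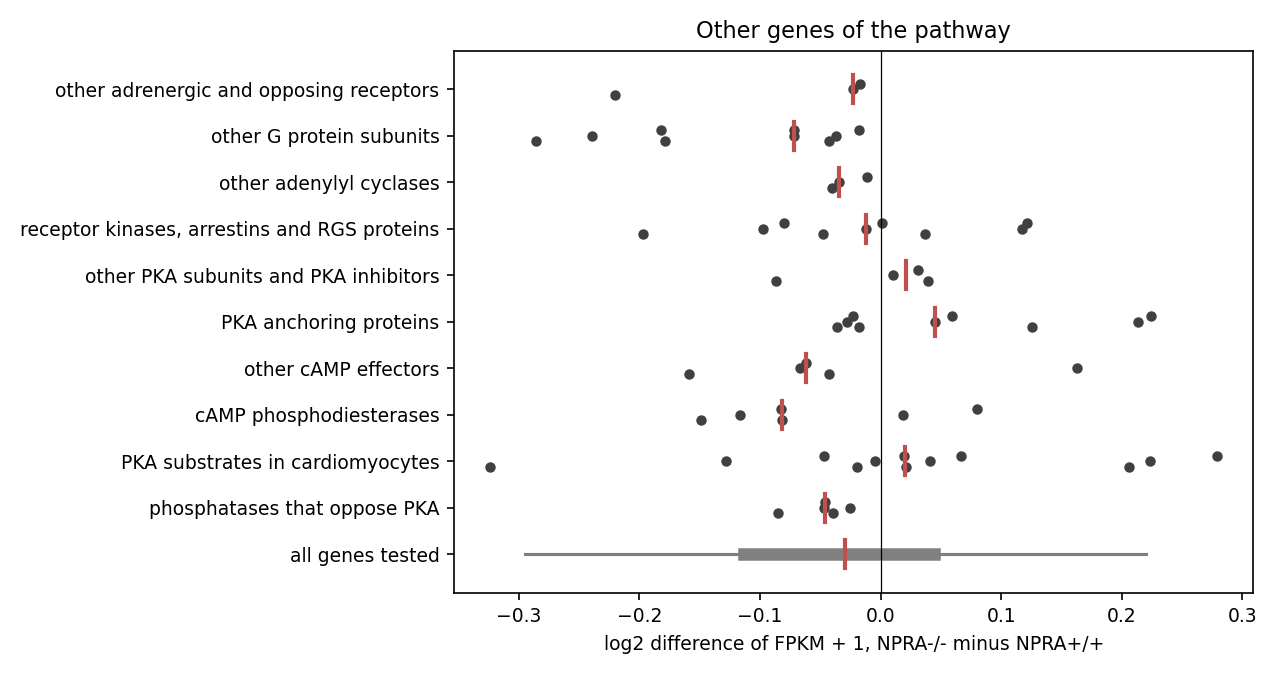
Difference of mean log2(FPKM + 1), NPRA-/- minus NPRA+/+, for the 65 tested genes of 10 pathway lists (points; red bars are list medians), above all 10764 genes tested (thick bar from the 25th to the 75th percentile, -0.11 to 0.04; thin line from the 5th to the 95th, -0.29 to 0.22). Most points lie within the thin line, and the list medians lie between -0.0821 and 0.0453.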

How the data were processed

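Poly(A) RNA of 10 myocardium libraries, 5 per genotype, was sequenced from both ends as strand-specific dUTP libraries, per the labels' protocols. The submitters' processing notes name cutadapt, HISAT2, StringTie and the build mm10, without versions. The deposited table names no unit, and its values are taken as FPKM made by the authors per transcript, and low values show no steps of whole reads; depth is thus unknown, and precision rests on the spread between libraries. It lists only transcripts with a mean of at least 0.5 FPKM in 1 genotype, sums to 430059 to 453122 FPKM per library, and 22107 of its 22157 identifiers matched GENCODE vM21 (GRCm38/mm10). An exact 0 is given as listed at 0.

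FPKM were summed per gene symbol and used as log2(FPKM + 1), which understates differences of low genes. Features with a group mean of 1 FPKM or more were tested across the whole table with limma 3.58.1 in R 4.3.3 (empirical Bayes with trend, no covariate, Benjamini-Hochberg at 0.05), after the script was tested on simulated data. Single values and transcript shares went through an exact permutation test, two-sided, over the 126 splits (smallest possible p 0.00794). The labels give 1 number per mouse and nothing more on the replicates, so p-values measure the spread between these samples. Figures used Python 3.11.15 with matplotlib 3.10.9.

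The 10 genes, the pathway lists and the markers were chosen with earlier results of these data known. All 10 genes are named; of each pathway list the 3 with the smallest p are named, except 1 gene that is not reported here. The alternatives were 2 pseudocounts, 2 filters, 3 scalings, 3 variance or weight settings, atrial or adipocyte score as a covariate, the most abundant transcript per gene, and leaving out each library; leaving out the 4 libraries with Sln above 5 FPKM was chosen after seeing the data. RefSeq windows were missing here for Adra1a and Adcy6, which were not analysed for motifs. Circular RNA was not analysed here.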

Additional observations from a re-analysis of the deposited data

Results flagged for a closer look

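In 120 groups of 5 values (each gene, transcript or named pathway gene within a genotype), 16 had an end value far from the other 4, a gap of more than 0.71 of the group's range; chance flags about 1 in 20 groups, and the groups share libraries and transcripts, so the flags are not independent. Library 255 held 7 of them. Among the NPRA+/+ libraries it stood above the others for Gnas (263 FPKM, others 190 to 203), Adcy5 (13.6 FPKM, others 11.1 to 11.7), Rgs2 (27.2 FPKM, others 12.6 to 15.5), Rgs2-202 (25.9 FPKM, others 11.3 to 14.5) and Gnas-208 (183 FPKM, others 15.3 to 59.0), and below them for Gnas-201 (listed at 0, others 17.7 to 23.6 FPKM) and Gnas-209 (listed at 0, others 13.3 to 18.7 FPKM). Gnas-201 and Gnas-209 have the same letters, so their single values are the split the table lists. The Gnas sum of 255 also rests on the split between transcripts of unlike length.

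Library 217, labelled NPRA-/-, stood apart for Adra1a (0.645 FPKM, others 1.60 to 1.80), Adra1a-203 (listed at 0, others 0.851 to 1.17 FPKM) and the phosphatase gene Ppp1ca (108 FPKM, the lowest of the others 98.8). Library 228, labelled NPRA+/+, stood apart for Gnas-202 (8.15 FPKM, others 2.96 to 4.41), the inhibitory G protein gene Gnai3 (6.19 FPKM, others 8.72 to 9.31) and the PKA inhibitor gene Pkia (101 FPKM, others 78.0 to 83.2). The rest were single flags in libraries labelled NPRA-/-: Prkar1a-201 in 227 (107 FPKM, others 91.4 to 95.2), Gnas-201 in 241 (23.7 FPKM, others 15.0 to 16.7) and the phosphodiesterase gene Pde4b in 231 (8.99 FPKM, others 7.14 to 7.62).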

How the results depend on the processing

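In every alternative 0 of the 10 genes, their transcripts and the pathway genes were called among those it tested; the floor of 5 FPKM left 8 of the 10 genes and the most abundant transcript 9, with no fit by transcript for that setting. Over all genes, where 1 was called, the count was 0 with median-of-ratios scaling, quantile normalization, an untrended variance, or either covariate, 2 with the most abundant transcript, 3 without the 4 libraries with Sln above 5 FPKM (3 against 3 left), and 0 to 2 without single libraries. Over all transcripts, where 5 were called, it was 3 at a floor of 5 FPKM, 2 with either covariate, 22 without the 4 libraries, and 2 to 10 without single libraries. No paired analysis was possible because the genotypes share no replicate numbers.

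None of the estimates below was called in any fit, and the cause of each change of sign was not tested. Of 1505 alternative values of 75 differences, 118 changed sign and 1381 kept sign and side of the threshold; the other 6, all shares or ratios with a library left out, reached an unadjusted exact p under 0.05. These were the Gnas shares of Gnas-202 without library 231 (exact permutation p = 0.0476, against 0.0873 to 0.294 with any other library left out), Gnas-206 without 242 (0.0397, against 0.135 to 0.333) and Gnas-224 without 228 or 242 (0.0238 each, against 0.0794 to 0.127; Gnas-224 has the letters of Gnas-223, so its share is the split the table lists), the Prkaca-202 share without 240 and the ratio of Prkaca to Prkar1a without 243. Log2 differences that changed sign follow. With the adipocyte score as covariate: Adra1b 0.23, Gnas 0.029, Grk5 0.018, Rgs2 0.11, Chrm2 0.054, Adora1 0.077, Adcy7 0.035, Pkia -0.056, Gnas-201 -0.50, Gnas-208 0.53, Gnas-209 -0.10, Gnas-223 -0.78, Prkaca-201 0.01, Prkar1a-202 0.18, Rgs2-202 0.12. With median-of-ratios scaling: Adra1a 0.0037, Chrm2 0.012, Adora1 0.011, Adcy4 0.018, Prkaca-201 0.0091. With quantile normalization: Adra1a 0.024, Adora1 0.022, Adcy4 0.027, Adcy7 0.0098, Adcy9 0.0024. With array weights: Adra1a 0.024. With a pseudocount of 0.1: Adora1 0.0012. With the most abundant transcript: Gnb2 0.30, Adcy4 0.44, Adcy7 0.55, Rapgef3 0.27, Pde4b 0.077, Cacnb2 -0.24, Creb1 0.032. Without the 4 libraries: Adrb1 -0.023, Adcy4 0.11, Adcy7 0.091, Adcy9 0.11, Grk2 0.054, Prkacb -0.10, Pde4b 0.026.

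Leaving out each library in turn gave, for genes whose sign changed, Adrb1 -0.054 to 0.13, Adra1a -0.11 to 0.13, Adra1b -0.19 to 0.12, Adcy6 -0.44 to 0.12, Gnas -0.11 to 0.009, Rgs2 -0.20 to 0.076, Chrm2 -0.081 to 0.059, Adora1 -0.31 to 0.18, Adcy4 -0.12 to 0.10, Adcy7 -0.23 to 0.10, Adcy9 -0.14 to 0.027, Grk2 -0.14 to 0.0042, Prkacb -0.11 to 0.10, Popdc2 -0.12 to 0.016 and Pde3a -0.0097 to 0.16. For transcripts it gave Gnas-201 -0.31 to 0.85, Gnas-207 -0.14 to 0.0069, Gnas-208 -0.53 to 0.35, Gnas-209 -0.027 to 1.05, Gnas-223 -0.63 to 0.70, Prkaca-201 -0.072 to 0.0086, Prkar1a-202 -0.25 to 0.10 and Rgs2-202 -0.21 to 0.088. Share differences in percentage points ran, for Gnas-201 -2.24 to 0.87, Gnas-207 -0.686 to 1.5, Gnas-208 -12.4 to 3.03, Gnas-209 -0.221 to 2.24, Gnas-223 -4.77 to 0.309, Prkar1a-202 -0.273 to 0.186 and Rgs2-204 -0.977 to 0.709. Differences of log2 ratios ran, for Adcy5 to Adcy6 -0.239 to 0.326 and Adra1a to Adra1b -0.184 to 0.241. Unknown depth and 5 libraries per genotype limit what could be seen, most of all for Adcy6.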
